A study of Arabidopsis thaliana with 6 samples.

Results

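The 7 genes studied here were compared between an rli mutant and wild-type (WT) plants of Arabidopsis thaliana. They were grouped under the name of rapid wound and stress response genes, and whether each belongs to that response was not tested. They are the transcription factor genes STZ (AT1G27730), ZAT12 (AT5G59820) and ORA47 (AT1G74930), the adjacent small genes AT4G27652, AT4G27654 and AT4G27657, and CCL (AT3G26740). The genes were picked by name as short-lived or rapidly induced transcripts, with the difference between rli and WT on these arrays already known. Their values in that comparison are therefore given as a description, without p-values. Each of the 7 was measured through 1 probe set (the group of probes read as 1 value) of the 22746 non-control probe sets of the array. The platform's gene table names 6 of these probe sets, and that of ZAT12 is not listed there and was assigned by the rule that chose the genes. Probe sets that the table does not list, or lists with several genes, were not searched for a further one of these genes.

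RNA of whole plants, roots included, grown on soil was labelled with biotin and hybridised to 6 one-colour Affymetrix ATH1 arrays, 3 of rli and 3 of WT. The rli plants are labelled as an RLI T-DNA insertion mutant at developmental stage 1.14 weeks, and the WT plants are labelled with stage 3.20 weeks. It is unclear from the labels if the values stand for age or for a growth stage code, so they are not used as ages. All 6 samples carry the source name Co-1 and the stock code N1084, so the labels name no difference in background. The same code on mutant and WT does not identify the mutant's own stock, and a difference in background was not tested. Genotype and labelled stage change together and cannot be told apart, and nothing in the labels says whether replicates were separate plants, so the spread between arrays may be technical. RLI is the RNase L inhibitor, an ABC-type ATPase (ABCE) known for splitting ribosomes after translation ends, and the study's title asks how it bears on RNA stability. The arrays give the level of a transcript at harvest, which does not separate synthesis from decay, and in whole plants fewer cells of a type and less RNA per cell cannot be told apart.

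Plant cells answer wounding, cold, salt, strong light or reactive oxygen within minutes by transcribing a set of early genes, many of which encode transcription factors. Their transcripts are often short-lived, so that their level follows the stimulus closely and falls soon after it ends. STZ, also called ZAT10, and ZAT12 are zinc finger proteins of the C2H2 type with an EAR repression motif. ORA47 is an AP2/ERF factor that activates genes of jasmonate synthesis, the hormone pathway of the wound response. The CCL transcript, by contrast, is known as an unstable message under control of the circadian clock. No function is annotated for the 3 small AT4G genes in the tables used here.

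WT replicate 3 stood apart from the other arrays before any gene was considered. Its log2 values correlated at 0.76 with those of each of the other WT arrays, which correlated at 0.92 with each other, while each rli array correlated at 0.87 with the others. Between the groups, WT replicates 1 and 2 correlated at 0.85 to 0.89 with the rli arrays, and WT replicate 3 at 0.75 to 0.79. The arrays were thus not sorted by group: rli replicate 2 was closer to WT replicates 1 (0.89) and 2 (0.88) than to the other rli arrays. Median intensity was 38.23 to 46.35 on the rli arrays, and 35.81, 36.62 and 52.98 on WT replicates 1 to 3. The mean log2 ratio of the 3' to the 5' probe sets over 6 Arabidopsis control pairs, a reading of RNA integrity, was 2.58 ± 0.16 in rli and 2.45 ± 0.36 in WT (SD, n = 3 each), which differed by 0.13 (p = 0.7 in an exact permutation test, two-sided, and 3 arrays against 3 cannot give a p under 0.1). By array it was 2.65, 2.39 and 2.68 in rli and 2.11, 2.4 and 2.83 in WT, highest on WT replicate 3. The 3' probe sets thus read well above the 5' ones on every array. The transcript of the leaf gene RCA, the activase of Rubisco and the 1 leaf marker with a named probe set, read 4079, 5571 and 4297 in rli, against 6260, 6301 and 5613 in WT. All rli values of RCA lay under its WT values. Its difference was -0.39 on the log2 scale (exact two-sided permutation p = 0.1, the lowest this test can give). In the limma fit described below RCA did not pass, except with array weights (-0.5, limma adjusted p = 0.023). With array weights 3181 probe sets passed, against 928 in the main fit. The root marker PYK10 read 1195, 1076 and 1254 in rli, against 1137, 1071 and 855.3 in WT, and the other root markers with a probe set, PER27 and PER57, read below the filter level on average. Over these 3 root markers the mean log2 value was 5.38 to 6.36 in rli and 4.82 to 5.92 in WT (exact two-sided permutation p = 0.5). None of the 12 flower and seed markers had a named probe set. The part of leaf share, of root share and of WT replicate 3 in the levels below was not tested, except where a value without that array is given.

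Of the 7 genes, 6 read higher on every rli array than on any WT array and 1, CCL, read slightly lower. The values below are linear MAS5 intensities (the array software's summary of a probe set) scaled to a common level on each array, and differences are rli minus WT on the log2 scale, each with its standard error from limma. All 7 had a mean at or above the filter level, 4.63 on the log2 scale, and were in the fit. The same 6 passed the threshold of that fit across 13648 probe sets (limma, adjusted p below 0.05), of which 6.80% passed in either direction and 4.27% upward. Groups did not overlap in all 7, as in 28.1% of all tested probe sets. The choice of the genes used this comparison, so nothing is read from these counts. The median difference of the 7 was 2.77, beside a median of 0.04 over all tested probe sets.

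**Figure D1:**
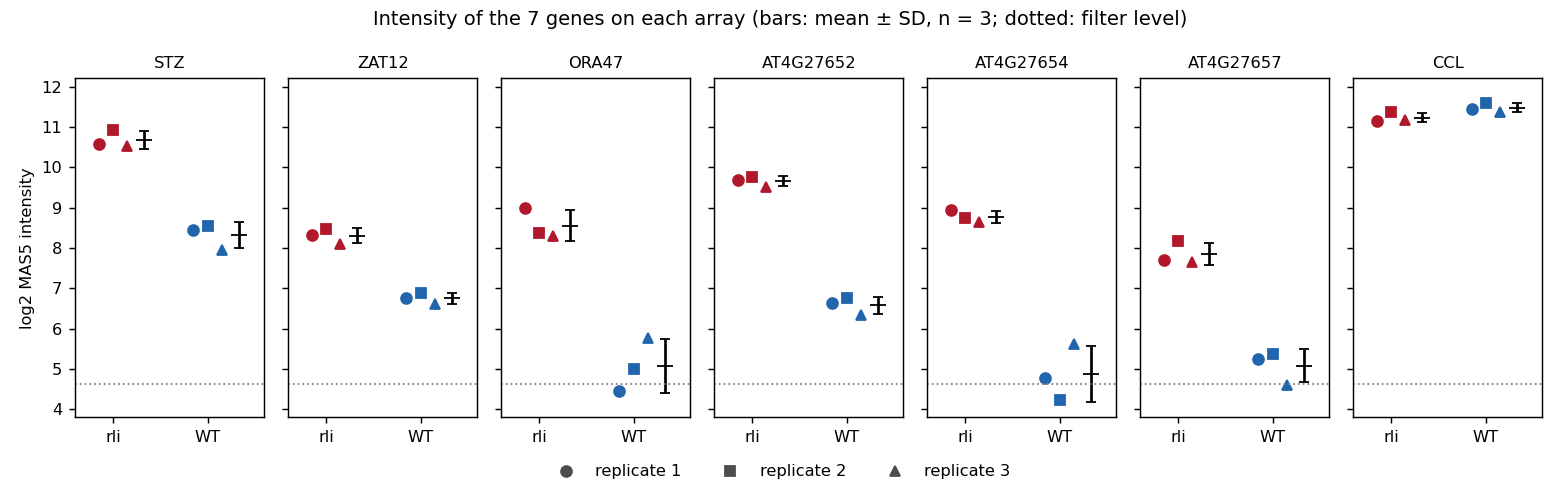
Log2 MAS5 intensity of each of the 7 genes on each array, with rli in red and WT in blue, marker shape for the replicate number, and mean ± SD (n = 3) as black bars. The dotted line is the filter level of 4.63. STZ, ZAT12, ORA47 and the AT4G genes lie higher on all rli arrays, while the CCL groups nearly touch.

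STZ, a repressor with the C2H2 fingers that is known for induction by salt, cold and strong light, read 1535, 1940 and 1467 on rli replicates 1 to 3, against 349.9, 375 and 246.5 on WT replicates 1 to 3. The lowest rli array was thus 3.91-fold above the highest WT array. Mean intensity was 1647 ± 256 in rli and 323.8 ± 68.1 in WT (SD, n = 3 each). The log2 difference was 2.36 ± 0.22, a 5.13-fold higher level. STZ had the highest rli reading on replicate 2 and the lowest WT reading on replicate 3, and it lay well above the filter level on every array.

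ZAT12, a close relative known for its response to reactive oxygen and high light and listed in RefSeq as RHL41, read 320.7, 354.6 and 274.9 in rli, against 107.5, 117.7 and 98.62 in WT. Both groups were tight, with the highest array 1.29 times the lowest in rli and 1.19 times in WT. The log2 difference of 1.55 ± 0.19, a 2.93-fold higher level, was the smallest among the 6 higher genes. A rise at least as large as that of ZAT12 was seen in 2.39% of all tested probe sets. Its call was the only one of the 6 that any of the 15 alternatives ended: after each array was centred on its median the difference was 1.47 ± 0.34 and it no longer passed.

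ORA47, the activator of jasmonate synthesis genes, read 511.9, 329.5 and 313.2 in rli, against 21.84, 31.91 and 54.71 in WT. The gap between the groups was wide, with the lowest rli array 5.73-fold above the highest WT array, but the WT readings were dim and spread 2.51-fold among themselves, with replicate 1 under the filter level. The log2 difference was 3.48 ± 0.34, an 11.1-fold higher level. No detection calls were used here, so the size of this fold rests on a WT level that may be close to background. Without WT replicate 1 the difference was 3.17, the lowest over all 15 alternatives.

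The 3 small genes AT4G27652, AT4G27654 and AT4G27657 follow each other directly among the protein-coding genes of chromosome 4 in RefSeq (assembly TAIR10.1). AT4G27652 read 825.5, 864.9 and 734.8 in rli, against 98.82, 107.8 and 80.85 in WT. Its rli arrays lay within 1.18-fold of each other, and the difference was 3.08 ± 0.19, an 8.48-fold higher level. AT4G27654 read 488, 429 and 397.1 in rli, against 27.53, 18.91 and 48.77 in WT. It had the largest difference of the 7, 3.89 ± 0.32 or 14.8-fold, and a WT spread of 2.58-fold, with WT replicate 2 under the filter level.

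AT4G27657 read 209.4, 286.5 and 203 in rli, against 37.77, 41.74 and 24.41 in WT. Its difference was 2.77 ± 0.26, a 6.81-fold higher level, and WT replicate 3 lay just under the filter level. The lowest rli array stood above the highest WT array by 6.82-fold for AT4G27652, 8.14-fold for AT4G27654 and 4.86-fold for AT4G27657, so the groups were separate for all 3 small genes. By size of rise among the tested probe sets AT4G27654 ranked 18, ORA47 26, AT4G27652 48, AT4G27657 67, STZ 109 and ZAT12 326.

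None of the loci beside the 3 small genes that could be tested passed the threshold. These loci are too few to be set against the 6.80% of all tested probe sets that passed. PEL1 (AT4G27650), a Pelota factor of ribosome rescue that precedes AT4G27652, read 77.09, 90.51 and 116.9 in rli, against 98.07, 97.86 and 118.1 in WT. Its difference was -0.16 ± 0.22 (limma adjusted p = 0.76). AT4G27640, one gene further out, stood at -0.12 ± 0.46 (limma adjusted p = 0.92). On the other side AT4G27660 was too dim to be tested, with 14, 12.67 and 36.5 in rli, against 15.49, 17.2 and 40.94 in WT. HSP21 comes next and has no named probe set, and AT4G27680 after it stood at -0.3 ± 0.2 (limma adjusted p = 0.45).

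**Figure D2:**
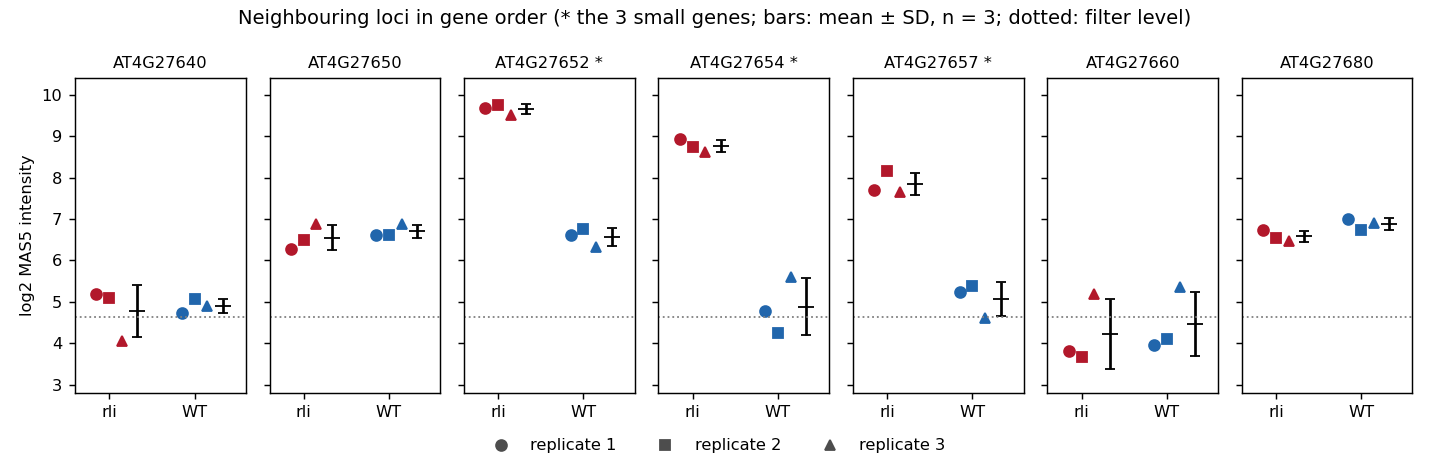
Log2 MAS5 intensity on each array for the loci with a named probe set around the 3 small genes of chromosome 4, in gene order from left to right, rli in red and WT in blue, with mean ± SD (n = 3) as black bars and the filter level dotted. The 3 starred genes are higher on all rli arrays, and the differences at the other loci did not pass the threshold or were not tested.

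The same was counted around all 7 genes, over the 3 protein-coding genes on each side. Of the 30 distinct neighbours that were not members, 16 had a named probe set and 13 were tested. None of the 13 passed the threshold in the limma fit, beside 6.80% of all tested probe sets, and 1 had an unadjusted p below 0.05. With 13 loci, a count of none is close to that share, so nothing is read from it. The 13 differences ran from -0.68 for AT1G74910 to 0.67 for ALDH10A8 (AT1G74920), an aldehyde dehydrogenase gene, both close to ORA47. AT1G74910 came near the threshold (limma adjusted p = 0.056), with 170.2, 166.9 and 153.6 in rli, against 266.5, 283.4 and 237.9 in WT. The neighbours named here were chosen for their position or, for the extremes of this range, after their values were seen. The jasmonate repressor gene JAZ2 (TIFY10B, AT1G74950), also close to ORA47, had no named probe set.

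CCL, the clock-controlled unstable transcript, did not share the higher level. It read 2270, 2625 and 2298 in rli, against 2791, 3111 and 2652 in WT. The highest rli array lay just below the lowest WT array, and each group spread by less than 1.2-fold: 1.16-fold in rli and 1.17-fold in WT. The difference was -0.25 ± 0.18, or 0.841 of the WT level, and did not pass the threshold. After quantile normalization it was -0.05 ± 0.19, and over all alternatives it lay between -0.32 and -0.05. CCL had the smallest difference of the 7, which does not show that its level was the same in both groups. The 1 other tested transcript of a fixed list of unstable messages, the auxin gene IAA29, stood at -0.32 ± 0.5 (limma adjusted p = 0.79), with 40.51, 45.54 and 39.31 in rli, against 29.59, 36.39 and 129.9 in WT. The clock gene GI, the 1 tested evening gene, stood at 1.16 ± 0.31 (limma adjusted p = 0.057). GI passed without WT replicate 3 (1.28, limma adjusted p = 0.015) and with array weights (1.35, limma adjusted p = 0.002). These settings raised the number of probe sets that passed from 928 to 2085 and 3181. None of the 9 morning clock genes of a fixed list had a named probe set.

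**Figure D3:**
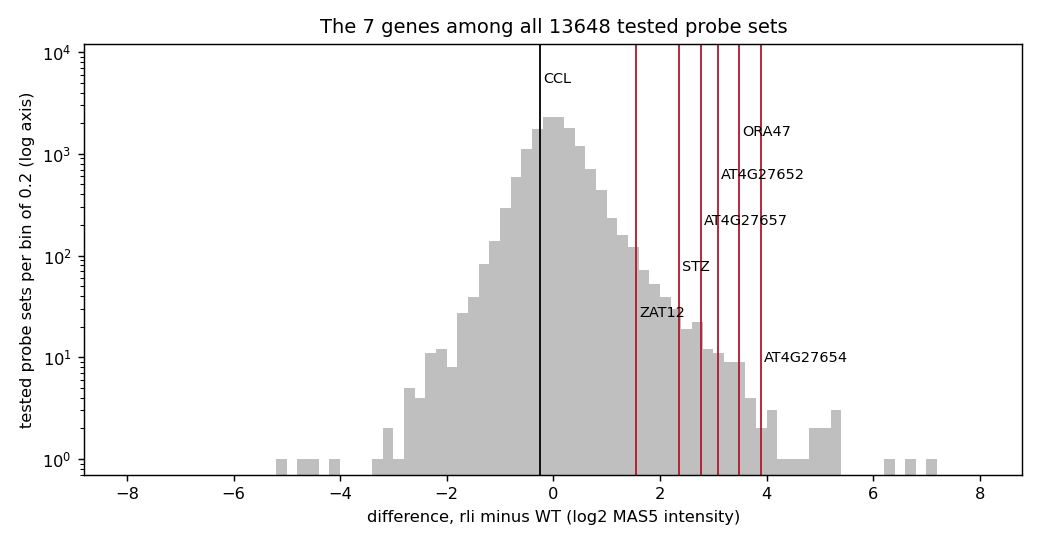
Number of tested probe sets (log axis) by difference, rli minus WT, in bins of 0.2 log2 units, with vertical lines at the 7 genes, red where the fit's threshold was passed and black for CCL. The 6 higher genes lie between 1.55 and 3.89, in the upper tail, and CCL at -0.25 lies near the median of 0.04.

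Within each group the 7 genes did not vary alike. On the rli arrays, replicate 2 gave the highest reading for 5 of the 7 and replicate 3 the lowest for 6 of the 7. On the WT arrays, replicate 2 gave the highest reading for 5 and replicate 3 the lowest for the same number. ORA47 and AT4G27654 broke this order: on the log2 scale they read 0.7 and 0.73 above their WT mean on WT replicate 3, where STZ and AT4G27657 deviated by -0.37 and -0.47. Among tested probe sets whose WT mean lay within 0.5 log2 units of that of ORA47, 60.9% were highest on WT replicate 3, and 62.4% of those near AT4G27654. Near STZ the share was 19.2%. Near AT4G27657 it was 60.6%, although AT4G27657 itself was lowest on that array. Without WT replicate 3 the difference was 3.83 ± 0.25 for ORA47 and 4.26 ± 0.21 for AT4G27654, both larger than with it. Those of STZ, ZAT12, AT4G27652 and AT4G27657 were smaller, at 2.17 ± 0.17, 1.49 ± 0.18, 2.97 ± 0.16 and 2.53 ± 0.21, and CCL stood at -0.3 ± 0.16. All 6 higher genes still passed.

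**Figure D4:**
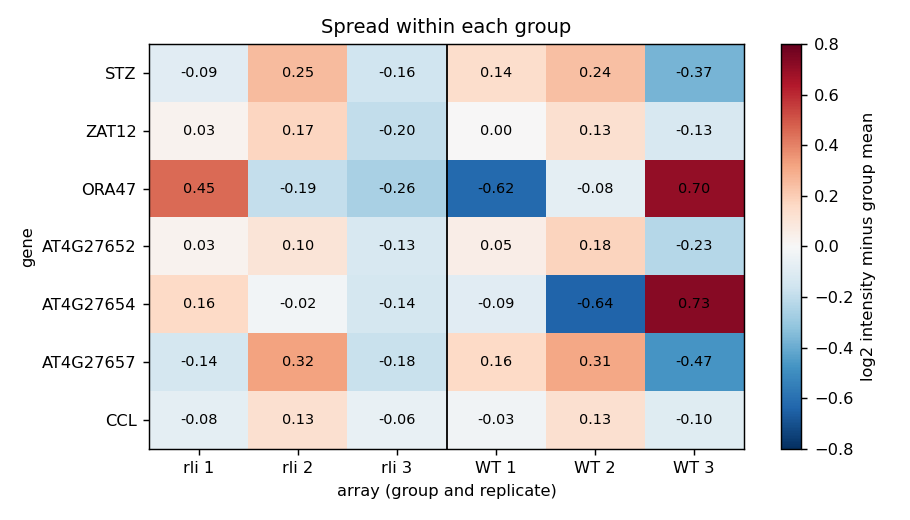
Log2 intensity of each of the 7 genes on each array minus the mean of its group, rli to the left of the line and WT to the right, on a colour scale from -0.8 (blue) to 0.8 (red). ORA47 and AT4G27654 lie above their WT mean on WT replicate 3, by 0.7 and 0.73, and the other 5 genes lie below theirs there.

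STZ and AT4G27657, on different chromosomes, had nearly the same pattern over the 6 arrays. Their Pearson r was 0.9999, the highest of any of the 7291 tested probe sets with 1 gene compared with either of them. Their deviations from the group means correlated at 0.999 too, over the same 6 arrays, so the likeness held within the groups as well as between them. It was not particular to this pair. The deviations of STZ correlated at 0.94 with those of AT4G27652, 0.84 with ZAT12 and 0.877 with CCL, which was not higher in rli. With ORA47 and AT4G27654 they correlated at -0.678 and -0.787. An r above 0.95 with STZ was seen in 156 probe sets. The next most like STZ were AT1G63880 (r = 0.9995) and AT2G25250 (0.9987), and the next most like AT4G27657 were AT1G63880 (0.9993) and AT2G24600 (0.9987). For ZAT12 they were AT3G27210 (0.9982), AT1G74450 (0.9981) and AT1G18740 (0.997), and AT1G18740 also led for AT4G27652 (0.9988), before PDC2 (0.9984), a pyruvate decarboxylase gene, and AT1G04780 (0.9978).

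The 2 genes that were highest in WT on replicate 3 had other nearest patterns. For ORA47 they were AT3G02070 (0.9994), AT3G23170 (0.9958) and AT3G19240 (0.9933), and for AT4G27654 they were AT5G56910 (0.9984), AT2G39650 (0.9964) and AT3G51620 (0.9964). For CCL they were AT2G30600 (0.9944), with a difference of -1.08, AT2G17350 (0.9862) and AT1G51110 (0.9846), and 31 probe sets had an r above 0.95 with it. All these are correlations over 6 arrays in 2 groups, which share each array's scaling.

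Other genes were taken from 5 lists of the rapid response and the list of unstable messages that holds IAA29. Together these 6 lists hold 122 loci, 26 of them with a named probe set and 21 tested. Of the 21, 11 rose, 1 fell and 9 did not pass, beside 4.27% of all tested probe sets upward and 2.53% downward. Their median difference was 0.99, beside 0.04 over all tested probe sets. CML37 and AT4G24110, both counted among those that rose, had a WT mean under the filter level and were tested only through their rli values. The lists were drawn up with earlier results of these arrays known, and some of their genes were already known to differ. Neither the count nor the limma adjusted p-values printed for list genes therefore stand as independent evidence. Those p-values only show where a gene lies against the threshold of the fit.

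The largest group was that of other rapid wound and stress genes, of which 13 of 46 loci were tested, 8 rose and 5 did not pass. AT4G29780 had the largest rise of any of the 21, with 1014, 1107 and 763.2 in rli, against 52.34, 51.94 and 51.3 in WT. The WT arrays were almost level, and the difference was 4.19 ± 0.2 (limma adjusted p = 8e-06). AT3G02840 read 464.1, 542.4 and 481.6 in rli, against 46.68, 65.7 and 58.89 in WT, a rise of 3.13 ± 0.2 (limma adjusted p = 6.6e-05). IDL7, which encodes a small peptide of the IDA-like family and was named here after its values were seen, rose by 3.1 ± 0.21 (limma adjusted p = 6.9e-05).

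The remaining members of that list were also named after their values were seen. The ubiquitin ligase gene PUB23, a brake on immune responses, rose by 1.72 ± 0.27 (limma adjusted p = 0.0061), while its relatives PUB22 and PUB24 stood at 0.68 ± 0.29 and 0.24 ± 0.19. AR781 rose by 1.86 ± 0.25 and AT1G27100 by 1.23 ± 0.19, and both lost the call after median centring (limma adjusted p = 0.052 and 0.13). The senescence factor gene WRKY53 rose by 0.99 ± 0.22 (limma adjusted p = 0.026) and AT4G24110 by 2 ± 0.48 (0.04), from a WT mean under the filter level. WRKY53 lost its call after median centring, without the intensity trend, without any 1 rli array and without WT replicate 1 (highest limma adjusted p = 0.31). AT4G24110 lost its call with no filter, without any 1 rli array and without WT replicate 1 or 2 (highest limma adjusted p = 0.19). The other senescence factor gene, WRKY6, stood at -0.54 ± 0.35, the zinc finger gene SAP13 at -0.69 ± 0.2 and AT1G19020 at 0.45 ± 0.24, and none of these 3 passed. PUB22 passed without WT replicate 3 (0.91, limma adjusted p = 0.035), and PUB22, WRKY6 and SAP13 passed with array weights. More probe sets passed in those settings, 2085 and 3181, than the 928 of the main fit.

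In the list of touch and calcium genes, 4 of 10 loci were tested, of which 2 rose and 1 fell. The calmodulin-like gene CML38 read 599.3, 949.2 and 592.6 in rli, against 151.7, 141.1 and 246.6 in WT, and rose by 2 ± 0.28 (limma adjusted p = 0.0026). CML37 rose by 3.23 ± 0.63 (limma adjusted p = 0.015), with 98.07, 106.1 and 81.87 in rli, against 14.81, 20.59 and 3.39 in WT, all 3 under the filter level. It lost the call after quantile normalization and without any 1 rli array (highest limma adjusted p = 0.1). CML47 went the other way, with 38.61, 72.07 and 47.53 in rli, against 98.67, 120 and 105.5 in WT. Its difference was -1.08 ± 0.27 (limma adjusted p = 0.043). That call held in 7 of 15 alternatives and was lost without rli replicate 1 or 3, without WT replicate 1 or 2, after both other normalizations, with no filter and without the intensity trend (highest limma adjusted p = 0.16). CML46, named after its values were seen, stood at -0.33 ± 0.23.

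**Figure D5:**
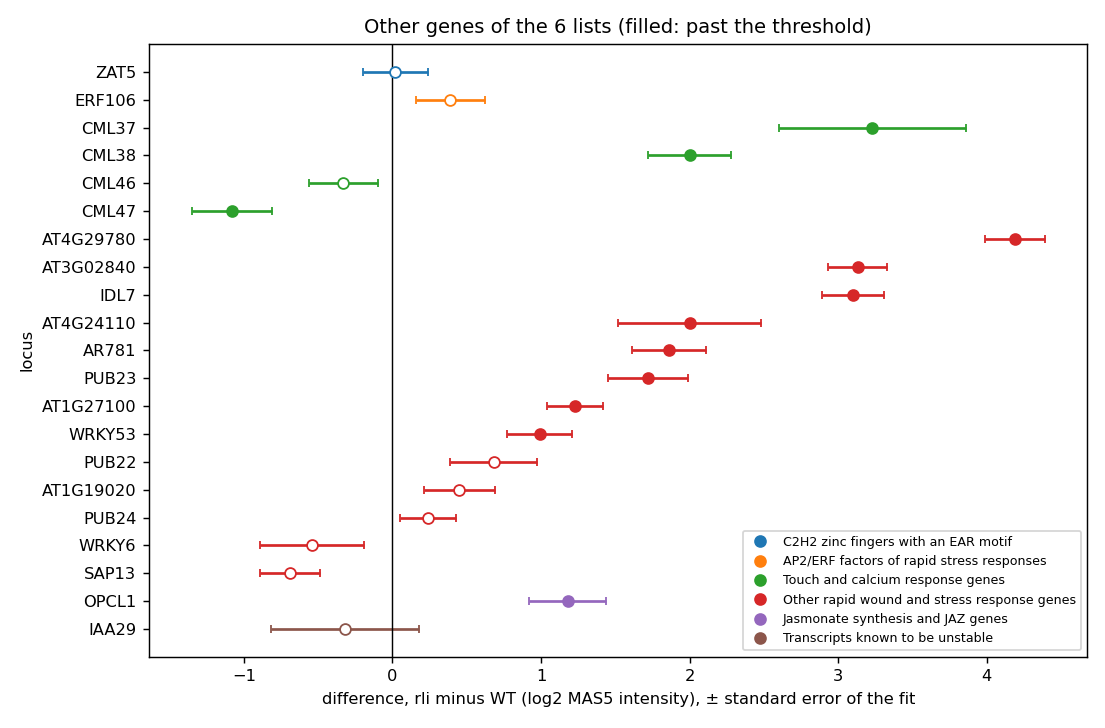
Difference, rli minus WT, on the log2 scale, with standard errors from limma, for the 21 tested loci of the 5 rapid response lists and the list of unstable messages, coloured by list, with filled points for loci past the threshold. AT4G29780 at 4.19 lies farthest right and CML47 at -1.08 is the 1 filled point below 0.

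The families of the transcription factors themselves could be read only in part. Of 10 other C2H2 genes with an EAR motif, 3 had a named probe set and 1 was tested, ZAT5, at 0.02 ± 0.22 (limma adjusted p = 0.98). It read 92.98, 83.87 and 84.7 in rli, against 89.31, 102.3 and 69.42 in WT, so the groups overlapped where those of STZ and ZAT12 did not. Of 20 other AP2/ERF genes, 3 had a named probe set and 1 was tested, ERF106, at 0.39 ± 0.23 (limma adjusted p = 0.37). ERF106 passed without WT replicate 3 (0.61, limma adjusted p = 0.025) and with array weights (0.53, limma adjusted p = 0.02). In these settings 2085 and 3181 probe sets passed, against 928 in the main fit. AT1G33760 was below the filter level on average and was not tested, with 30.05, 51.12 and 28.52 in rli, against 0.5525, 2.643 and 1.442 in WT. It was named after its values were seen.

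Of 26 genes of jasmonate synthesis and its JAZ repressors, the pathway that ORA47 acts on, OPCL1 alone had a named probe set. OPCL1, a CoA ligase of the later steps of jasmonate synthesis, read 403.9, 535.9 and 431.7 in rli, against 224.5, 257.9 and 137.8 in WT, and rose by 1.18 ± 0.26 (limma adjusted p = 0.025). It lost the call after median centring, without the intensity trend, without any 1 rli array and without WT replicate 1 (highest limma adjusted p = 0.26). The lists of jasmonate, C2H2 and AP2/ERF genes are thus each read through 1 tested gene.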

How the data were processed

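The deposited table holds linear intensity values per probe set. Per the submitters' processing notes the authors used MAS5 and GCOS, and no version is stated there. A mean trimmed of 2% of probe sets at each end was 100.01 on every array, so the intensities were only moved to the log2 scale. Groups and replicate numbers came from the sample titles. Of 22810 probe sets, 64 controls were left out, 13513 have 1 gene in the platform table, and 13436 of these matched a RefSeq locus (TAIR10.1). Testing was limited to the 13648 probe sets with a mean log2 value at or over the 40th percentile, 4.63. A locus with several probe sets was read through the one with the highest mean.

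The fit of rli against WT used lmFit and eBayes, with an intensity trend, from limma 3.58.1 (R 4.3.3), two-sided, with Benjamini-Hochberg adjustment over all tested probe sets and a threshold of 0.05. The step was tested on simulated data with independent noise and no outlying array. That test does not cover an array that stands apart, as WT replicate 3 did. Exact permutation tests used scipy 1.17.1. The number of arrays limits the precision. The 7 genes, the lists and the rule for named genes were chosen with earlier results of these data known. That rule names all 7, in each list the 2 largest changes each way past the threshold or else the 2 with the smallest p, and for each of the 7 the 3 genes with the highest Pearson r. Names outside it are marked in the text. Alternatives were 2 other normalizations, other filters, a floor at 9.29, 2.43 added to each value, the replicate number as a block, array weights, no intensity trend and each array left out.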

Additional observations from a re-analysis of the deposited data

How the results depend on the processing

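Over 15 alternatives, 5 of the 6 higher genes passed the threshold in every one, and ZAT12 in 14, so that 6 of the 7 passed in each alternative except median centring, where it was 5 (ZAT12 at 1.47). Since the groups do not overlap, unchanged signs under most settings follow from the choice of genes. The count of changed probe sets, 928 with 583 higher, was 332 (227 higher) after median centring, 3181 (1719 higher) with array weights and 593 without the intensity trend. With each array left out it ran from 389 (without rli replicate 3) to 2085 (without WT replicate 3), and the count higher from 282 to 1190. The 12 changed loci of the 6 lists of other genes were 7 after median centring and 7 to 14 with each array left out. The 3'/5' difference of 0.13 ran from -0.04 (without WT replicate 1) to 0.32. The causes of these shifts were not tested. Fits with an array left out have fewer degrees of freedom than the main fit, and their counts went both ways. With the replicate number as a block 1300 probe sets changed, and the same number, 6, of the 7 genes passed. Deviations of same-numbered samples correlated at -0.09, 0.33 and 0.32, so the numbers were not taken to pair the samples. Without detection calls, WT readings of ORA47, AT4G27654 and AT4G27657 near the filter level may be background, and their folds are uncertain in size.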
